A study of Mus musculus with 30 samples.

Results

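The regions described here are the stretches of the mouse genome that were called as H3K9me3-enriched in the doxycycline (DOX) libraries and in no untreated library, named DOX-only regions below. The members were chosen by the calls themselves: enriched regions of 6 H3K9me3 ChIP-seq libraries on chromosomes 1 to 19 were joined wherever 1 bp or more was in common, and a merged region was kept when 2 or 3 of the 3 DOX libraries and 0 of the 3 untreated libraries called it. This left 2424 of 44431 merged regions, or 5.46%. The same rule with the groups exchanged gave 802 regions called only without DOX, or 1.81%, named untreated-only regions below.

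ChIP-seq was done on cells that all carry the label embryonic stem cell, with titles that begin with EB. The DOX libraries were EB-DOX-D2, EB-DOX-D3 and EB-Er71-Flag-DOX-D2, and the untreated libraries were EB-noTreat1, EB-noTreat2 and EB-noTreat3. The 3 DOX libraries thus carry 3 different titles. What D2, D3 and the Er71-Flag tag stand for, and which cell line was used, is not stated in the labels. RNA-seq came from other samples: the iETV2 line with DOX and without it, the iETV2-KDM4A (H188A) line with DOX and without it, and cells labelled KDM4A/4C DKO beside their Control, with 3 libraries in each of the 6 groups. DOX switches on Etv2 in the inducible iETV2 line, and H188A is a substitution in KDM4A, so RNA beside a DOX-only region describes the same gene in other cultures. The DKO controls were low in stem cell markers and high in hematopoietic markers, which goes against their label of embryonic stem cell, and the values are given with the RNA results. Nothing says that the libraries of a group came from separate cultures, so p-values measure the spread between these libraries, which may be technical.

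H3K9me3 is the trimethylated form of lysine 9 on histone H3. It is written by enzymes such as SETDB1 and SUV39H1, bound by HP1 proteins, and marks silent chromatin over repeats, gene clusters that are not in use, imprinted alleles and some developmental genes. KDM4A and KDM4C belong to the JmjC demethylases that remove it. ETV2, also called ER71, is an ETS transcription factor that starts the blood and endothelial programme in mesoderm and binds DNA at a GGAA core.

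Of the DOX-only regions, 40 (1.65%) touched the promoter window of a gene, defined as 250 bases before to 50 bases after an annotated start in RefSeq (GRCm38.p6). The share was 5.99% for untreated-only regions and 5.03% for regions called in all 6 libraries. Their median lengths were 3800 and 7600 bp, against 3000 bp for DOX-only regions, and the part of length in these shares was not tested. Among DOX-only regions called in all 3 DOX libraries, the promoters of 5 protein-coding genes were inside, and their sequences are printed because they are the places where the regions meet a gene start. Each window lies wholly within its region and is written 5′ to 3′ on the strand of the gene. Capitals mark CCGGAA, a form of the ETS core, or TTCCGG, the same letters on the other strand, and TGCCGC, the motif of the imprinting factor ZFP57, or GCGGCA on its other strand. No 2 matches overlap in these windows.
Mcts2 (chr2:152686898-152687197, plus strand): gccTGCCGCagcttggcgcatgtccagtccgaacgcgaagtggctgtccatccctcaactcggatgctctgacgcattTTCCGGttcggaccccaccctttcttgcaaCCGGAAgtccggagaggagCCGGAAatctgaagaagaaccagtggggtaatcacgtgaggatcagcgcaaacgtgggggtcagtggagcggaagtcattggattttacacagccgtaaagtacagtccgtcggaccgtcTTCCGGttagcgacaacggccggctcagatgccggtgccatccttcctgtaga
Aplp1 (chr7:30445533-30445832, minus strand): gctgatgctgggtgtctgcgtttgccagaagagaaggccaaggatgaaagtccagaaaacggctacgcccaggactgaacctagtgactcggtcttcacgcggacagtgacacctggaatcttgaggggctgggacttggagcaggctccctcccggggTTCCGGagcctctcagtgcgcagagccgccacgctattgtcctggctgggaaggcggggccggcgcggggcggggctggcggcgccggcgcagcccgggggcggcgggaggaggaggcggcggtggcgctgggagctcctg
Fbxl21 (chr13:56522222-56522521, plus strand): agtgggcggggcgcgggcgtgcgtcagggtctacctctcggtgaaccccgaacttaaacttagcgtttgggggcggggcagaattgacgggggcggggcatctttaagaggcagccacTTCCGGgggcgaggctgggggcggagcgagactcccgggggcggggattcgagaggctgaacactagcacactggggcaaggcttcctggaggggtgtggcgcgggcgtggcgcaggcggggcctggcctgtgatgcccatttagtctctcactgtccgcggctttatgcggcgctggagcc
Ablim1 (chr19:57215983-57216282, minus strand): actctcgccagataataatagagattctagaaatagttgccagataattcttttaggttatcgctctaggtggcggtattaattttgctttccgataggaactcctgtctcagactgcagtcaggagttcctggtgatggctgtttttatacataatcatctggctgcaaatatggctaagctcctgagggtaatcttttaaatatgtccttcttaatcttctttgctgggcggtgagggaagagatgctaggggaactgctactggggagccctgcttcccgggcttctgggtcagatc
Psme2b (chr11:48946361-48946660, minus strand): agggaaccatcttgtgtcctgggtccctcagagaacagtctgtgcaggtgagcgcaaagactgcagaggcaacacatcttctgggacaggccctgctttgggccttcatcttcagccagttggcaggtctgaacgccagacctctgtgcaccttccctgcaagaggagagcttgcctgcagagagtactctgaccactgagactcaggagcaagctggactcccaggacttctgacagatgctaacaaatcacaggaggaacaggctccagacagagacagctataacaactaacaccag

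The 5 windows differed in base composition. Mcts2, an imprinted retrogene, held 25 CpG, 4 matches to the ETS core and 1 to the ZFP57 motif. Aplp1, a relative of the amyloid precursor protein, held 26 CpG and 1 ETS match, and Fbxl21, an F-box protein of the circadian clock, held 27 CpG and 1 ETS match. Ablim1, an actin-binding LIM protein, held 6 CpG, and Psme2b, a second copy of the proteasome activator gene Psme2, held 2, with no match to either motif in both. Over all 41 windows at DOX-only regions the median was 3 CpG, against 7 over the 31396 windows of the annotation. The ETS core was found in 14.6% of the 41 windows, against 15.1% of all windows, and the ZFP57 motif in 7.32%, against 11.6% of all windows. A match describes letters in a window and no binding.

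The 5 promoter regions were called from these counts. The Mcts2 region (chr2:152683801-152688200) had 130 ChIP reads over 118 input reads in EB-DOX-D2, 189 over 126 in EB-DOX-D3 and 95 over 64 in EB-Er71-Flag-DOX-D2. The Fbxl21 region (chr13:56517601-56522600) had 126 over 73, 201 over 114 and 78 over 15 in the same order of libraries. A fold is given below as the ratio of ChIP to input reads divided by 1 constant per library, as the authors' log2 fold changes imply. The region at Aplp1 (chr7:30445401-30448600) had 74 over 56, 139 over 87 and 82 over 44 reads, that at Ablim1 (chr19:57212801-57217200) 82 over 52, 137 over 87 and 69 over 34, and that at Psme2b (chr11:48943801-48949600) 110 over 59, 216 over 143 and 80 over 52. On the scale of folds Mcts2 stood at 1.27, 1.74 and 1.70 in the same order, and Fbxl21 at 1.99, 2.04 and 5.95. The folds were 1.53, 1.85 and 2.13 at Aplp1, 1.82, 1.82 and 2.32 at Ablim1, and 2.15, 1.75 and 1.76 at Psme2b. A region of an untreated library lay only 200 bp from the Psme2b region, so untreated calls reached close to it. That distance was 10600 bp at Fbxl21, 50000 bp at Aplp1, 66600 bp at Ablim1 and 77600 bp at Mcts2.

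The RNA of these 5 genes did not move together. In iETV2, Ablim1 had a log2 change of 0.31 with DOX (SE 0.06, edgeR adjusted p = 0.00155) and rose, while Mcts2, Aplp1, Fbxl21 and Psme2b had log2 changes of 0.16, -0.20, -0.30 and 0.64 that did not pass the test. Without DOX replicate 3 the log2 change of Aplp1 was -0.39 and passed (edgeR adjusted p = 0.00266), and without control replicate 3 that of Psme2b was 0.71 and passed (edgeR adjusted p = 0.0499). With the replicate number as a block both passed, at -0.22 (adjusted p = 0.0385) and 0.64 (adjusted p = 0.0282). Psme2b reads can be split with Psme2, and those of the retrogene Mcts2 with its parent gene, so the values of both are uncertain. In cells labelled DKO, Mcts2 fell, with 7.93, 8.59 and 7.39 CPM (reads of the gene scaled to the library total) against 16.3, 15.2 and 15.3 CPM in their controls, a log2 change of -1.09 (SE 0.08, edgeR adjusted p = 2.17e-10). Aplp1 rose there, with 27.7, 24.5 and 25.4 CPM in DKO against 5.71, 7.59 and 7.64 CPM in controls. No library of 1 group overlapped the other group for either gene. Over all tested genes with a position, 71.8% were called in that comparison. Ablim1 fell there (log2 change -0.48, edgeR adjusted p = 3.44e-09). In the H188A line Ablim1 rose (0.50, edgeR adjusted p = 0.00985), but did not pass without DOX replicate 3 or control replicate 2. Its printed start, 57216032, lies inside the gene span of 57032733 to 57315344. Gene counts do not single out RNA from that start.

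Most DOX-only calls came from 2 libraries, and EB-DOX-D2 took part in most. All 3 DOX libraries called 553 regions, and exactly 2 called 1871. The pair EB-DOX-D2 and EB-DOX-D3 gave 841 of these, EB-DOX-D2 and EB-Er71-Flag-DOX-D2 gave 834, and EB-DOX-D3 and EB-Er71-Flag-DOX-D2 gave 196. EB-DOX-D2 thus called 2228 (91.9%) of the DOX-only regions, EB-DOX-D3 called 1590 and EB-Er71-Flag-DOX-D2 called 1583. Just outside the rule lay 6851 regions called in 1 DOX library and no untreated one, of which 4131 were from EB-DOX-D2 alone, and 2992 regions called in 2 or 3 DOX libraries and 1 untreated library.

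**Figure D1:**
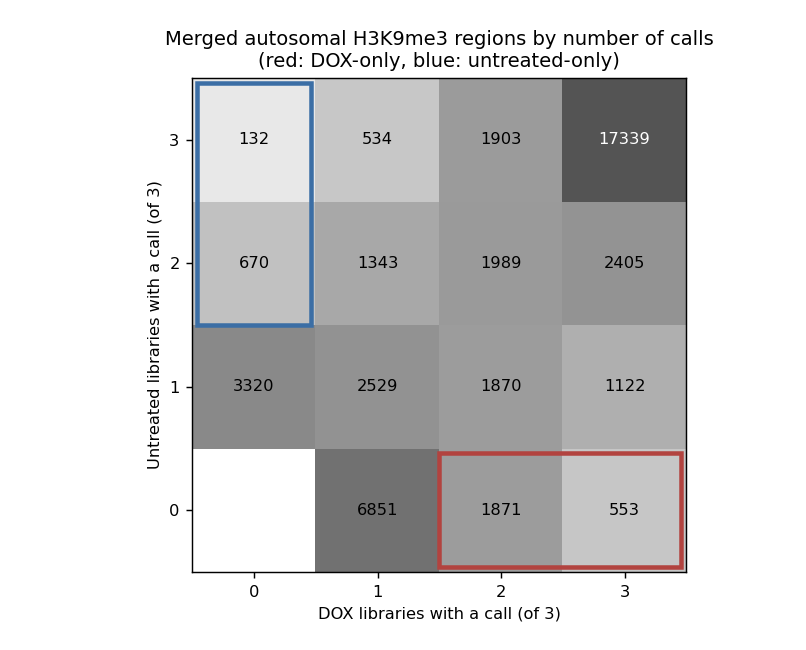
Number of merged autosomal H3K9me3 regions by how many DOX libraries (horizontal, 0 to 3) and how many untreated libraries (vertical, 0 to 3) called them, with darker cells for larger counts. The red frame holds the 1871 and 553 DOX-only regions, the blue frame the 670 and 132 untreated-only regions, and 17339 regions were called in all 6 libraries.

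The lists of the libraries differed in length and in covered genome. EB-DOX-D2 had 40292 autosomal regions, EB-DOX-D3 had 32073 and EB-Er71-Flag-DOX-D2 had 34456, against 29444, 30683 and 33398 in EB-noTreat1, EB-noTreat2 and EB-noTreat3. The means were 35607 ± 4229 with DOX and 31175 ± 2022 without it (SD, n = 3 each), and a two-sided exact permutation test gave p = 0.2, where 0.1 is the smallest p this design allows. Covered length was 207, 183 and 152 Mb in the DOX libraries in that order, and 173, 200 and 177 Mb in the untreated libraries. The means were 181 ± 27.4 Mb with DOX and 184 ± 14.6 Mb without it (exact permutation p = 1). Measured as shared 200 bp windows over all windows of either library, likeness was 59.0 to 62.8% between DOX libraries and 58.4 to 64.9% between a DOX and an untreated library, against 63.3 to 66.2% between untreated libraries. The constant that relates read ratios to fold was 0.866, 0.863 and 0.874 in the DOX libraries in that order, and 0.993, 1.20 and 1.12 in the untreated libraries. The groups did not overlap in this constant, and its part in the calls was not tested.

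The excess of DOX-only over untreated-only regions turned round in 2 settings. Without EB-DOX-D2, 749 regions were called in both other DOX libraries and no untreated one, and 2070 were called in 2 or 3 untreated libraries and neither of those DOX libraries. With each list shortened to the 29444 regions of smallest p, the counts were 1487 DOX-only and 1759 untreated-only. Without EB-DOX-D3 the counts were 1387 and 1124, and without EB-Er71-Flag-DOX-D2 they were 1394 and 1089. Without an untreated library, DOX-only regions numbered 3264 to 3534 and untreated-only regions 270 to 517. The minimum of 2 calls was kept when a library was left out. Leaving out an untreated library can thus only add DOX-only and remove untreated-only regions, and leaving out a DOX library does the reverse. Only the size of these shifts depends on the data. With a stricter FDR of 0.001 in every library they were 2380 and 846.

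**Figure D2:**
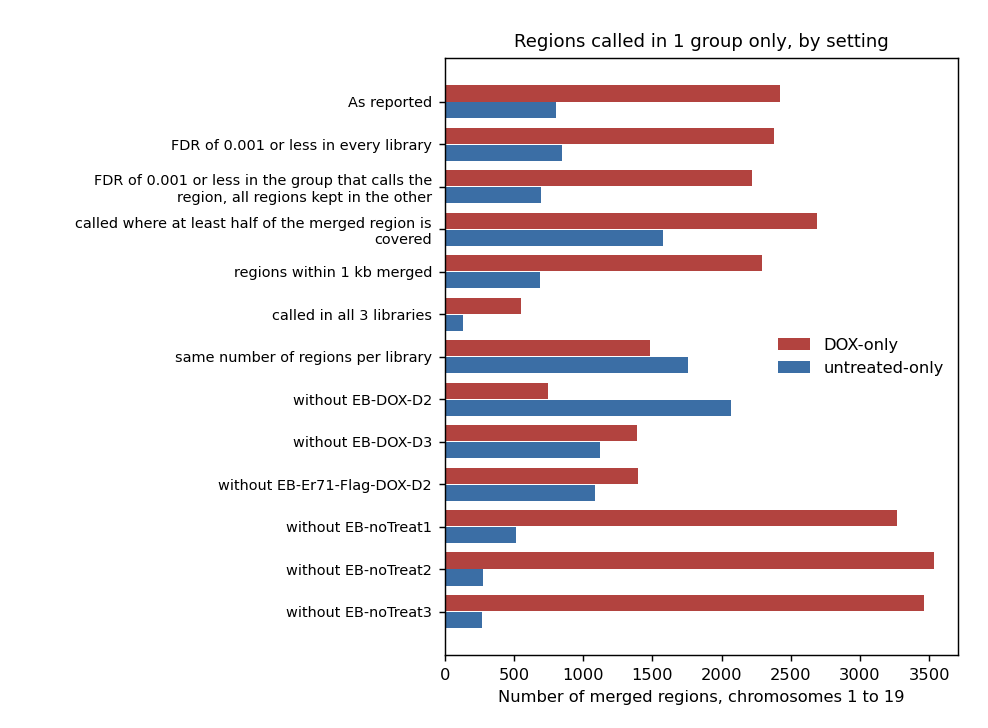
Number of DOX-only regions (red, upper bar) and untreated-only regions (blue, lower bar) under each way of merging, thresholding or leaving out a library. DOX-only regions outnumber untreated-only regions as reported (2424 against 802), and fall below them without EB-DOX-D2 (749 against 2070) and with lists of equal length (1487 against 1759).

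DOX-only regions were short. Their median length was 3000 bp, with a range of 200 to 12800 bp, and 6 reached 10 kb. Untreated-only regions had a median of 3800 bp and regions of all 6 libraries one of 7600 bp, of which 29.8% reached 10 kb. DOX-only regions called in 3 libraries had a median of 3800 bp and those called in 2 one of 3000 bp. A merged length joins the calls of several libraries, so it can grow with the number of libraries that call. The median length called within EB-DOX-D2 was 2400 bp for regions called in 3 and 2200 bp for those called in 2. It was 3000 and 2600 bp in EB-DOX-D3, and 2200 and 2000 bp in EB-Er71-Flag-DOX-D2. All DOX-only regions together covered 7.97 Mb, or 2.7% of the merged length.

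Their enrichment over input was near that of the other regions of the same library. In EB-DOX-D2 the median DOX-only region had 109 ChIP and 61 input reads and a fold of 2.12, against 2.39 for regions of all 6 libraries and 2.08 for regions that this library alone called. In EB-DOX-D3 the medians were 115 and 68.5 reads and a fold of 1.97, against 2.15 in regions of all 6. In EB-Er71-Flag-DOX-D2 they were 78 and 44 reads and a fold of 2.08, against 2.17 in regions of all 6. A fold of 2 or more was reached by 59.8%, 47.4% and 55.0% of the DOX-only regions in the 3 libraries in that order, against 64.2%, 53.5% and 56.5% of every merged region the library called. Since the rule picks regions by these calls, the values are a description. The untreated libraries list no value where they made no call, so the difference in signal at a DOX-only region cannot be given.

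**Figure D3:**
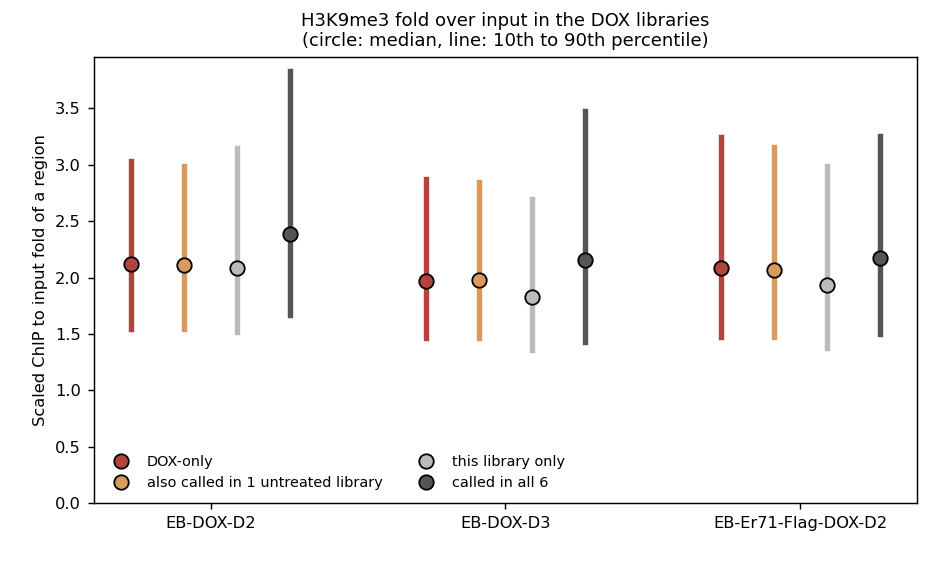
Scaled ChIP to input fold of regions in each DOX library (horizontal), with circles for medians and lines for the 10th to 90th percentile, by kind of region. The DOX-only medians of 2.12, 1.97 and 2.08 lie below those of regions called in all 6 libraries, which are 2.39, 2.15 and 2.17, and the ranges overlap broadly.

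The median distance of a DOX-only region to the nearest region of an untreated library was 18400 bp. Of the 2424, 19.4% lay within 5 kb of such a region and 80.0% within 50 kb. For untreated-only regions the median distance to a region of a DOX library was 10100 bp, and 87.5% lay within 50 kb of one. Distances of random positions were not computed, so nearness beyond chance was not tested. By chromosome, the DOX-only share of merged regions ran between 3.83% on chromosome 12 and 8.06% on chromosome 18.

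By overlap, about as many DOX-only regions lay in genes as regions of all 6 libraries did. A gene was overlapped by 36.6% of DOX-only, 47.4% of untreated-only and 38.9% of all-6 regions, and a protein-coding gene by 25.4%, 31.9% and 25.5% of them in that order. Overlap can grow with the length of a region, and regions of all 6 libraries were longer. The centre of a region lay in a gene for 33.5%, 40.8% and 30.0% in the same order. It lay in a protein-coding gene for 24.5%, 28.6% and 21.2%. No gene lay within 50 kb of 20.6%, 13.6% and 19.9% of the regions in the same order. In all 839 genes overlapped a DOX-only region, 545 of them protein-coding, and 1257 had one within 5 kb. Of these 1257, 465 also had a region of all 6 libraries within 5 kb. The annotation used gives gene spans and promoter windows only, so exons and introns were not told apart.

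Among the genes with 3 or more DOX-only regions, picked after their counts were seen, were long genes and 2 of 6 antigen receptor loci. Over all merged regions 5.46% were DOX-only and 1.81% untreated-only. The immunoglobulin kappa locus Igk (chr6:67555636-70726754) overlapped 8 (7.14%) of 112 merged regions there, near the share over all, and the T cell receptor alpha locus Tcra (chr14:52427967-54224198) overlapped 6 (12.2%) of 49. At the other loci, Igh overlapped 2 of 86, with 1 untreated-only region, Igl 1 of 9, Tcrb 1 of 16 and Tcrg 0 of 6. Cdh12, a cadherin of neurons, overlapped 5 of 22, and Csmd3, Astn2 and Lsamp, which are large genes of the nervous system, overlapped 4 each, of 11, 13 and 21 merged regions. Sntg1, a syntrophin gene, overlapped 4 of 42. Of these 5 genes, Sntg1 also overlapped an untreated-only region.

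The 6 longest DOX-only regions called in all 3 DOX libraries were 7600 to 10600 bp. The longest, chr14:53425201-53435800, lay in Tcra over the variable segment Trav6-3 and had 398 ChIP over 317 input reads in EB-DOX-D2, 249 over 197 in EB-DOX-D3 and 124 over 121 in EB-Er71-Flag-DOX-D2. Its folds were 1.45, 1.46 and 1.17 in that order, so length did not go with a high ratio there. The one at chr4:87041601-87050000 lay in Slc24a2, a sodium, calcium and potassium exchanger, with folds of 1.34, 1.29 and 1.38. The one at chr4:38579001-38586800 lay in the lncRNA gene Gm12381 and had higher folds of 2.16, 2.96 and 2.49, and those at chr15:5586001-5593600, in the lncRNA gene 5430437J10Rik, were 2.2, 1.70 and 1.94. The other two, at chr4:89235401-89243800 and chr8:76163801-76171600, had no gene within 5 kb.

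The 6 DOX-only regions with the highest lowest ratio of ChIP to input reads, among those with at least 5 input reads in each library that called them, were 200 to 5200 bp, and each was called in 2 libraries. The one next to Zfp42, chr8:43311401-43313600, had 101 ChIP over 17 input reads in EB-DOX-D2 and 71 over 18 in EB-Er71-Flag-DOX-D2, folds of 6.86 and 4.51. It lay 4392 bp from the gene on the side of its start, and 2200 bp from a region of an untreated library. The one at chr3:64414201-64414600, in the vomeronasal receptor gene Vmn2r4, had 36 over 9 reads in EB-DOX-D2 and 77 over 7 in EB-DOX-D3. The one at chr2:89385001-89390200, over the odorant receptor pseudogene Olfr1235-ps1, had 224 over 54 reads in EB-DOX-D3 and 120 over 31 in EB-Er71-Flag-DOX-D2. The others lay in Tcra, in Ccser1 and, at chr16:14502801-14503000, away from any gene within 5 kb, with input counts of 6 to 21.

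RNA counts gave 40334911 to 68970038 reads per library. Etv2 checked the labels: it had 19.7, 18.1 and 18.2 CPM in iETV2 with DOX, against 2.73, 3.02 and 3.05 CPM without it, and 11.5, 18.6 and 15.5 CPM in the H188A line with DOX, against 0.669, 0.139 and 0.319 CPM without it. Kdm4a was at 42.9, 46.9 and 42.0 CPM in libraries labelled DKO, against 53.9, 54.4 and 55.7 CPM in their controls, and Kdm4c at 48.0, 42.7 and 46.0 CPM, against 30.2, 32.2 and 29.6 CPM in controls. RNA of the targeted genes was thus present in libraries labelled DKO, and that of Kdm4c was higher, and a gene count does not show whether protein is made. The stem cell marker Pou5f1 was at 349 to 383 CPM in DKO, against 22.3 to 23.3 CPM in the DKO controls, and at 256 to 583 CPM over the 4 groups of the iETV2 and H188A lines. The summed hematopoietic markers, 20 genes, were at 128 to 134 CPM in DKO, against 1898 to 1975 CPM in the DKO controls.

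Of the 1257 genes within 5 kb of a DOX-only region, 621 passed the filter on low counts in iETV2 and 636 were not tested. With DOX, 109 rose and 121 fell, together 37.0% of the 621, where 29.4% of all tested genes with a position were called. The share was 39.1% at untreated-only regions and 31.1% at regions of all 6 libraries. The median log2 change was -0.02 at DOX-only regions and 0.00 over all tested genes, so genes beside a DOX-only region were neither mostly lower nor mostly higher. These genes were long, with a median span of 107 kb against 19.1 kb over all tested genes, and at untreated-only regions 87.9 kb; the part of gene length in the share was not tested. In bulk RNA, fewer cells of a type and less RNA per cell cannot be told apart.

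Runx1, the transcription factor that blood stem cells need to arise from endothelium, rose with DOX in iETV2, and 2 DOX-only regions lay in it. The regions were chr16:92718601-92721200, with folds of 1.43 in EB-DOX-D2 and 2.98 in EB-DOX-D3, and chr16:92772801-92774800, with folds of 3.01 in EB-DOX-D2 and 2.25 in EB-Er71-Flag-DOX-D2. Their centres were 22572 and 52273 bp from the nearest annotated start, and no region of all 6 libraries lay in the gene. Runx1 had 33.5, 34.9 and 30.0 CPM in iETV2 with DOX, against 4.78, 4.47 and 5.38 CPM without it, a log2 change of 2.77 (SE 0.09, edgeR adjusted p = 3.71e-12). The groups did not overlap. In the H188A line it had 19.8, 15.1 and 14.7 CPM with DOX, against 19.5, 18.8 and 20.9 CPM without it, and the groups overlapped. It stood at 15.1, 14.3 and 14.8 CPM in DKO, against 212, 202 and 200 CPM in their controls.

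The 10 largest increases in iETV2 beside DOX-only regions also included Csgalnact1, Arhgap31 and Rasgrp3. Csgalnact1, a chondroitin sulfate synthesis enzyme, had 3.94, 3.18 and 3.62 CPM with DOX, against 0.275, 0.121 and 0.564 CPM without it, a log2 change of 3.58. Its region, chr8:68661001-68665200, was called in all 3 DOX libraries with folds of 2.32, 2.28 and 2.53. Arhgap31, which turns off the small GTPases Rac1 and Cdc42, had 24.4, 24.5 and 20.7 CPM with DOX, against 2.39, 1.96 and 3.19 CPM without it, and Rasgrp3, which activates Ras and Rap1, had 41.9, 45.1 and 37.6 CPM, against 10.7, 9.95 and 10.2 CPM. With DOX, every library of these 3 genes lay above every library without it.

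Further increases were those of Rab27b, a GTPase of vesicle release, with a log2 change of 3.80, Pkhd1l1, a large membrane protein related to fibrocystin, with 2.67, and Cdh11, a mesenchymal cadherin, with 2.63. Col25a1, a transmembrane collagen, had 2.59, Smad9, an effector of BMP signals, 2.31, and Zfpm2, a GATA cofactor, 1.93. The edgeR adjusted p of the 10 largest increases ran between 1.63e-13 and 2.68e-05. Where a start was annotated in the promoter table, which held for 4 of the 10, the region of Rasgrp3 was the nearest to one, 5137 bp away at its centre.

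Among the 10 largest decreases were those of Iqub, Cfap126 and Hydin. Iqub, a protein of the sperm flagellum, had 0.439, 0.616 and 0.654 CPM with DOX, against 16.8, 15.4 and 15.9 CPM without it, a log2 change of -4.79 (SE 0.14, edgeR adjusted p = 8.9e-13). Cfap126, which positions basal bodies, had 2.69, 1.58 and 3.82 CPM with DOX, against 41.6, 35.0 and 41.5 CPM without it. Hydin, of the central pair of motile cilia, had 2.60, 3.53 and 5.47 CPM with DOX, against 23.2, 24.4 and 25.3 CPM without it. In each, all DOX libraries lay below all libraries without it.

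The other decreases were those of Map3k19, a kinase, with a log2 change of -4.89, Efcab6, an EF-hand protein, with -3.31, Tctex1d1, related to dynein light chains, with -3.18, and Ak9, an adenylate kinase, with -3.12. Lrrc36 had -2.61, Dcdc2a, a microtubule-binding doublecortin protein, had -2.36, and Cfap70, of the outer dynein arm, had -2.28. The region in Iqub, chr6:24458201-24463400, had folds of 1.84 in EB-DOX-D2 and 1.31 in EB-DOX-D3. The one in Cfap70, chr14:20427601-20432200, was called in all 3 DOX libraries at folds of 1.28, 1.40 and 1.21, among the lowest of those described. The one beside Cfap126, chr1:171107801-171110400, lay 3512 bp from the gene.

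**Figure D4:**
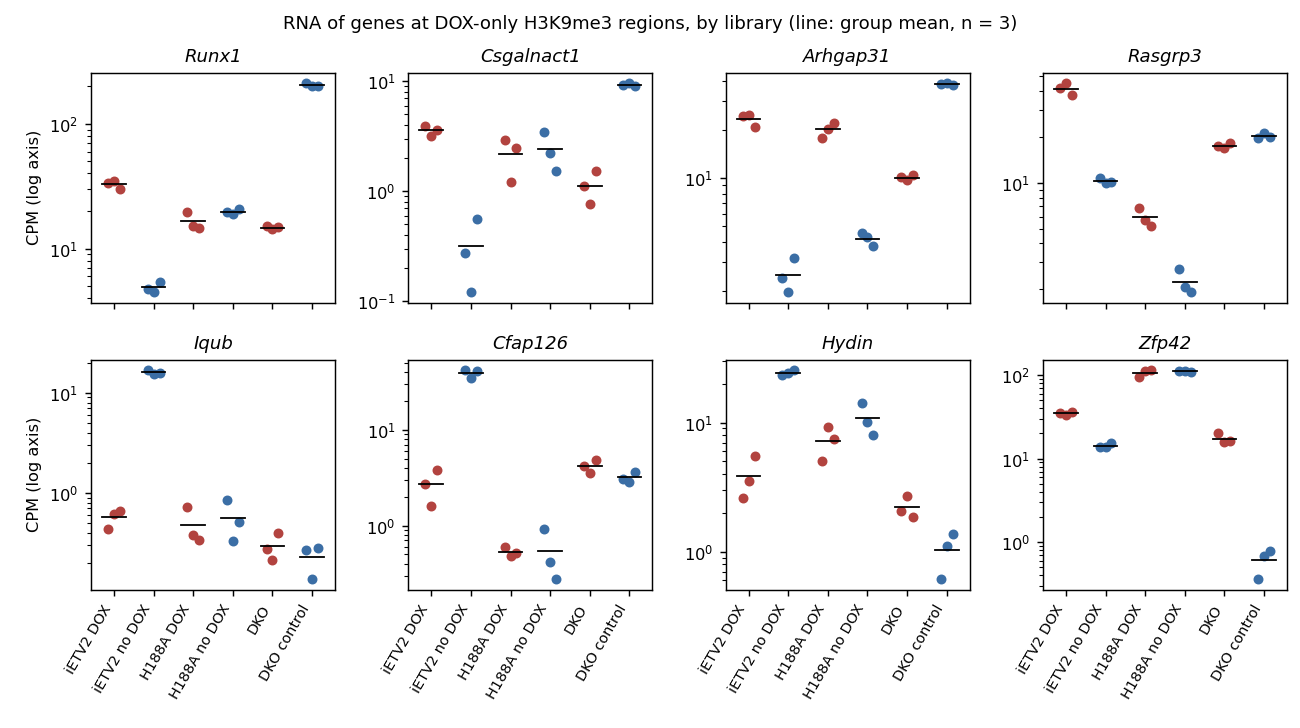
CPM (log axis) in every RNA library for 8 genes beside a DOX-only region, with points for libraries, lines for group means (n = 3), red for DOX or DKO and blue for the group it is set against. In iETV2 the DOX libraries of Runx1, Csgalnact1, Arhgap31, Rasgrp3 and Zfp42 lie above those without DOX, and those of Iqub, Cfap126 and Hydin lie below.

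A DOX-only region lay within 5 kb of 1257 (2.67%) of 47042 RefSeq genes on these chromosomes, and of 3 (1.76%) of 170 genes in 11 lists, which is near that share. These were Zfp42, 1 of 14 pluripotency genes, Runx1, 1 of 19 hematopoietic genes, and Sycp1, 1 of 14 germline genes. None of 24 endothelial, 18 mesoderm, 18 neural, 13 endoderm and 10 fibroblast genes had one. None of 18 H3K9 methyltransferase and partner genes, 12 H3K9me3 reader genes and 10 H3K9 demethylase genes had one either, where fewer than 1 per list would follow from the share over all genes. In iETV2, 20 of 23 tested endothelial genes and 16 of 20 hematopoietic genes rose, against 14.7% of all tested genes with a position, so the genes of the blood and endothelial programme rose with DOX, and among them Runx1 was the one beside a DOX-only region. Of the H3K9 demethylases tested, 0 rose and 5 of 11 fell, and of the methyltransferases and partners 4 rose and 1 fell of 19, where 14.7% of all tested genes with a position rose and 14.7% fell.

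Zfp42, also called Rex1 and a marker of naive pluripotent cells, rose in iETV2 beside the region of high ratio described above. The pluripotency list as a whole went both ways there, with 5 of 14 higher, 3 lower and a median log2 change of 0.12. Zfp42 had 34.9, 33.1 and 36.6 CPM with DOX, against 13.6, 13.6 and 15.5 CPM without it, a log2 change of 1.31 (SE 0.07, edgeR adjusted p = 1.12e-09). It had 96.0, 112 and 114 CPM in the H188A line with DOX, against 113, 112 and 109 CPM without it. It had 20.1, 15.7 and 16.3 CPM in DKO, against 0.359, 0.686 and 0.775 CPM in their controls. Sycp1, a protein of the synaptonemal complex in meiosis, had 3.91, 2.89 and 2.72 CPM in DKO, against 0.287, 0.216 and 0.158 CPM in controls, and rose there by a log2 change of 3.72 (edgeR adjusted p = 2.78e-10). The germline list that holds Sycp1 rose as a whole in that comparison, with 12 of 12 tested genes higher, where 33.3% of all tested genes with a position were. Its sum was 46.6 to 48.2 CPM in DKO, against 5.59 to 6.99 CPM in controls. Pluripotency genes as a list moved the same way in that comparison, with 12 of 14 higher and 1 lower and a sum of 3472 to 3510 CPM in DKO, against 981 to 986 CPM in controls. None of the 14 pluripotency genes was at 0 in a whole group, and the part of these list-wide rises in Zfp42 and Sycp1 was not tested.

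Genes at the longest and highest-ratio regions were mostly at very low RNA levels. Vmn2r4 had at most 0.188 CPM in any iETV2 library, and the T cell receptor segments and Olfr1235-ps1 had at most 0.0939 CPM in them. Slc24a2 fell in iETV2, with 0.422, 0.601 and 1.02 CPM with DOX, against 1.41, 1.38 and 2.21 CPM without it, a log2 change of -1.27 (edgeR adjusted p = 0.0129), and its adjusted p was 0.0607 without DOX replicate 1 and 0.0563 without control replicate 3. Ccser1 had a log2 change of 0.66 there that did not pass.

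DOX was also given to the H188A line. Of 609 tested genes within 5 kb of a DOX-only region, 17 rose (2.79%, with 2.5% over all tested genes with a position) and 11 fell (1.81%, with 0.696%), together 4.60%, where 3.2% of all tested genes with a position were called. The count was 6 without DOX replicate 3 or control replicate 2, 8 without DOX replicate 2, 10 without control replicate 1 and 70 without control replicate 3, so single libraries decided it. These are 0.89%, 0.969%, 1.17%, 1.63% and 10.4% of the tested genes beside a DOX-only region, and the share over all tested genes with a position moved alike, at 0.417%, 0.391%, 0.624%, 0.983% and 8.22% in the same order. Arhgap31 rose in the H188A line too, with 17.8, 20.3 and 21.9 CPM with DOX, against 4.54, 4.31 and 3.77 CPM without it. The difference of the DOX response between the lines, tested as an interaction in edgeR over the 12 libraries, passed for 9 of the 10 largest increases and 6 of the 10 largest decreases. These genes were picked for the size of their change in iETV2, which is 1 side of that difference. The share of all tested genes that passed is not given, so these counts are no result about DOX-only regions. Rasgrp3 was the increase that did not pass (adjusted p = 0.06). Levels without DOX differed between the lines, as for Iqub at a mean of 0.560 CPM in the H188A line and 16.0 CPM in iETV2. Their part in the interaction was not tested.

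In the libraries labelled DKO, most genes were called in any set. Of 562 tested genes within 5 kb of a DOX-only region, 410 (73.0%) were called, where 71.8% of all tested genes with a position were. More were higher than lower: 237 rose (42.2%, with 33.3% over all tested genes) and 173 fell (30.8%, with 38.5% over all tested genes). The median log2 change was 0.18, against -0.05 over all tested genes. It was 0.27 at untreated-only regions and 0.21 at regions of all 6 libraries, and 0.01 for genes beside a DOX-only region with no region of all 6 within 5 kb. This comparison sets DKO against controls low in stem cell markers, and the 2 differences cannot be told apart.

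**Figure D5:**
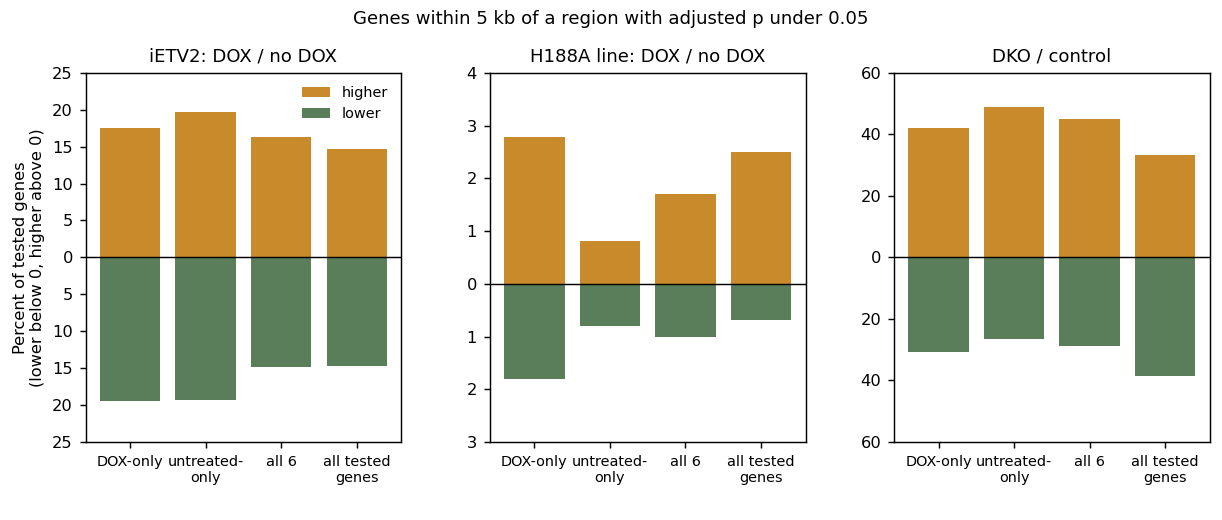
Percent of tested genes that were higher (above 0) or lower (below 0) at an edgeR adjusted p under 0.05, for genes within 5 kb of DOX-only, untreated-only and all-6 regions and for all tested genes with a position, in 3 comparisons. In iETV2 the called shares are 37.0%, 39.1%, 31.1% and 29.4% in that order, and the vertical axes differ between panels.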

How the data were processed

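H3K9me3 ChIP-seq (6 libraries) and RNA-seq (18 libraries) were analysed from deposited tables; the input libraries gave no regions of their own. Per the file headers, the authors deposited region lists with ChIP and input counts, a p-value with its FDR, a score and a log2 fold change over input. All listed regions had an FDR of 0.05 or less and consisted of 200 bp windows; the score was the log2 fold change rescaled and was not used further. The total depth of the ChIP libraries is unknown, since counts cover called regions only. The authors deposited raw RNA counts for 55487 genes. The submitters' processing notes name STAR 2.7.10b, HTSeq 2.0.3, featureCounts 2.0.6, Bowtie, DiffBind, GRCm38 and mm10 among others; the region caller and the strand setting are not given in the sources used here, so overlapping and antisense genes are uncertain.

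RNA was tested in R 4.3.3 with edgeR 4.0.16 (filterByExpr, TMM, quasi-likelihood F test, Benjamini-Hochberg adjustment over all genes tested, threshold 0.05), on 6 libraries per comparison; DESeq2 1.42.0 was an alternative. SE comes from the F statistic, and CPM use the library total. The test was run on simulated data first. Genes were placed by RefSeq spans (GRCm38.p6); 83.2 to 83.8% of tested genes had a position. Libraries with the same number did not deviate together in every pair, so whether the numbers pair the samples is not known.

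Regions named were the 6 longest called in 3 DOX libraries and the 6 with the highest lowest read ratio among those with at least 5 input reads in each calling library; genes named were the 10 largest increases and decreases in iETV2 with an average log2 CPM of at least 0, listed genes and genes at named regions. Promoter genes were added after their values were seen. The members and lists were chosen with earlier results of these data known.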

Additional observations from a re-analysis of the deposited data

Results flagged for a closer look

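For 16 genes beside a DOX-only region, the log2 response to DOX in the H188A line differed from that in iETV2 by an edgeR interaction test over 12 libraries. The difference, H188A line minus iETV2, was -4.40 for Rab27b, -3.62 for Csgalnact1, -0.94 for Arhgap31, -2.98 for Runx1, -4.77 for Pkhd1l1, -2.12 for Cdh11, -3.61 for Col25a1, -3.06 for Smad9, -1.39 for Zfpm2 and -1.30 for Zfp42. These 10 genes rose in iETV2. For genes that fell in iETV2 the difference was 4.66 for Iqub, 4.03 for Cfap126, 2.73 for Efcab6, 2.14 for Hydin, 1.74 for Lrrc36 and 1.59 for Cfap70. Without DOX their mean CPM in the H188A line were 0.560, 0.537, 1.51, 10.8, 1.41 and 1.48 in that order. In iETV2 without DOX they were 16.0, 39.4, 8.29, 24.3, 1.74 and 6.84. For genes that rose this went both ways, as 19.7 against 4.88 CPM for Runx1 and 6.03 against 20.8 CPM for Cdh11. The part of these starting levels in the differences was not tested. Adjusted p ran between 2.34e-08 for Runx1 and 0.0303 for Lrrc36. Most of these genes were picked for the size of their change in iETV2, which is one side of each difference. The share of all tested genes that passed is not given, so the count of 16 is no result about DOX-only regions.

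Chromosome X, outside the rule, held 140 DOX-only and 39 untreated-only regions among 2262 merged regions, and chromosome Y held 20 and 58 among 2459.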

How the results depend on the processing

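DOX-only regions numbered 553 when called in all 3 libraries and 1487 with equal list lengths, and 749 to 3534 when 1 library was left out. Untreated-only regions numbered 132 and 1759 in the same settings, 1577 where 50 percent of a merged region had to be covered, and 270 to 2070 when 1 library was left out. The direction of the shifts without a library is fixed by the rule, which keeps a minimum of 2 calls. The DOX minus untreated difference in covered length was -2.85 Mb and lay between -16 and 11.3 Mb when 1 library was left out (5.49 Mb without control replicate 2), and that in summed ChIP reads was -1373400 and lay between -3053030 and 229066. Genes called beside DOX-only regions in iETV2 were 230 (37.0% of those tested), with 29.4% over all tested genes with a position. They were 569 (32.1%) within 50 kb, 63 (40.9%) at regions called in 3 and 90 (40.4%) with EB-DOX-D2 left out. In the H188A line they were 28 (4.60%), with 3.2% over all tested genes with a position. In those settings they were 67 (3.94%), 4 (2.61%) and 7 (3.23%), the last 2 below and near that share. With no low-count filter they were 78 (7.92%, with 5.29% over all tested genes with a position). When 1 library was left out they were 6 to 70 (0.89 to 10.4%, with 0.391 to 8.22% over all). In DKO they were 410 (73.0%), with 71.8% over all, and 1182 (73.5%), 115 (77.2%) and 156 (76.1%) in those settings. DESeq2 called 202, 33 and 389 in the 3 comparisons in that order (20.7%, 3.35% and 42.3% of the tested genes beside DOX-only regions, with 14.1%, 2.4% and 38% over all tested genes with a position). With the replicate number as a block, counts were 300 in iETV2, 11 in the H188A line and 407 in DKO (48.3%, 1.81% and 72.4%, with 41.2%, 1.32% and 70.9% over all tested genes with a position); the numbers were not shown to pair the samples, and in no comparison did every sample correlate best with its own number. Of single-gene results, 794 kept their direction and side of the threshold, 14 passed it newly, 5 no longer passed and 33 changed sign, in 13 pairs of gene and comparison of which 0 passed the threshold in either setting. With 1 library left out, log2 changes in iETV2 lay between -0.031 and 0.098 for Kdm4a and -0.20 and 0.65 for Sycp1. In the H188A line they lay between -0.033 and 0.086 for Zfp42, -0.67 and 0.34 for Ccser1, -0.28 and 0.27 for Csgalnact1, -0.076 and 0.079 for Fbxl21, -0.091 and 0.018 for Kdm4c, -0.23 and 0.65 for Cfap126, -0.57 and 0.21 for Iqub, -0.30 and 0.19 for Psme2b, and -1.58 and 0.51 for Rab27b. In DKO they lay between -0.65 and 0.43 for Slc24a2 and -0.033 and 0.43 for Iqub. In the H188A line DESeq2 gave 0.020 for Zfp42 and 0.015 for Ccser1, and no low-count filter gave 0.052 for Zfp42, 0.053 for Ccser1, 0.014 for Csgalnact1, 0.027 for Fbxl21 and 0.0072 for Kdm4c. The cause of these changes was not tested. The gene counts with EB-DOX-D2 left out, the test between the lines and the X and Y counts were chosen after seeing the data. Signal in untreated libraries at DOX-only regions was not analysed here.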
